A study of Homo sapiens with 4 samples.

Results

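The data described here are those of 10 genes of the epithelial-mesenchymal transition (EMT), taken by name from a table of 61541 genes. They are the transcription factors SNAI1, SNAI2, TWIST1, ZEB1 and ZEB2, the mesenchymal markers VIM, FN1 and SPARC, and the epithelial regulators ESRP1 and GRHL2. All 10 were found by symbol, and 7 of the 10 passed the filter on low counts. RNA was sequenced from MHCC97H, an established human hepatocellular carcinoma (HCC) cell line. There were 2 libraries of control cells (shCon) and 2 libraries of cells carrying a short hairpin RNA against UBXN1 (shUBXN1), a ubiquitin-binding UBX-domain protein. The series' design text speaks of transfection, and the study's methods describe lentiviral pLKO.1 vectors and name the control shRFP. The hairpin used in the sequenced cells is not given in the sources used here. Whether the 2 libraries of a group came from separate cultures is not given either. The p-values thus rest only on the spread between these libraries, with each gene's spread drawn toward that of other genes.

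EMT is the program by which epithelial cells lose polarity and cell-cell junctions and gain a motile, matrix-producing state. The Snail factors (SNAI1, SNAI2) and the ZEB factors (ZEB1, ZEB2) are zinc finger repressors that bind E-box sequences in promoters of epithelial genes such as CDH1 (E-cadherin), and TWIST1 is a basic helix-loop-helix factor of the same program. On the epithelial side, ESRP1 directs epithelial splicing, GRHL2 activates junction genes, and microRNAs of the miR-200 family bind the ZEB1 and ZEB2 transcripts, while the ZEB factors repress the miR-200 loci. In HCC the program is known for its association with invasion, and well-differentiated hepatocytes are themselves epithelial cells.

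The miR-200 family is shown because it is a well known regulator of the ZEB1 and ZEB2 transcripts. Its mature RNAs fall into 2 seed groups, that of miR-200b, miR-200c and miR-429 and that of miR-200a and miR-141. The sequences are from RefSeq (GRCh38.p14), written 5′ to 3′, and the capitals mark the seed (bases 2 to 8).
hsa-miR-200b-3p: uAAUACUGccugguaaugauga
hsa-miR-200c-3p: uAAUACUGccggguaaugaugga
hsa-miR-429: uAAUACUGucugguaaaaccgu
hsa-miR-200a-3p: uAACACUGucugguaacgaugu
hsa-miR-141-3p: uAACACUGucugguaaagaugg

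The letters complementary to the seeds, CAGTATT for the first group and CAGTGTT for the second, were searched on the sense strand of the 3′ UTR of each member's canonical transcript (GRCh38, GENCODE 44). ZEB1 held 6 matches of the first and 3 of the second in 2540 bases, and ZEB2 held 5 and 4 in 5370 bases. FN1 held 2 of the first in 690 bases, SNAI2 held 1 of the first, ESRP1 held 1 of each and GRHL2 held 1 of the second. SNAI1, TWIST1, VIM and SPARC held none. Of 19527 annotated 3′ UTRs, 16.04% held the first and 18.15% the second. At least as many of the first as ZEB1 were held by 0.01%, and as many as ZEB2 by 0.041%. For the second these shares were 1.004% for ZEB1 and 0.297% for ZEB2. The shares are not adjusted for length, and a longer 3′ UTR has more places for a match. Examples of these matches follow in the direction of the gene, with the match in capitals.
ZEB1, chr10:31527618-31527644 (+): attgttttatcttatCAGTATTatcac
ZEB1, chr10:31528782-31528808 (+): tgagatttgatttaaCAGTGTTatgtt
ZEB2, chr2:144388985-144389011 (-): cgcactacaatgcatCAGTATTatgat
ZEB2, chr2:144389232-144389258 (-): tgcaaaaattttgtaCAGTGTTaaggc
FN1, chr2:215361299-215361325 (-): gtattcaataccgctCAGTATTttaaa

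**Figure D1:**
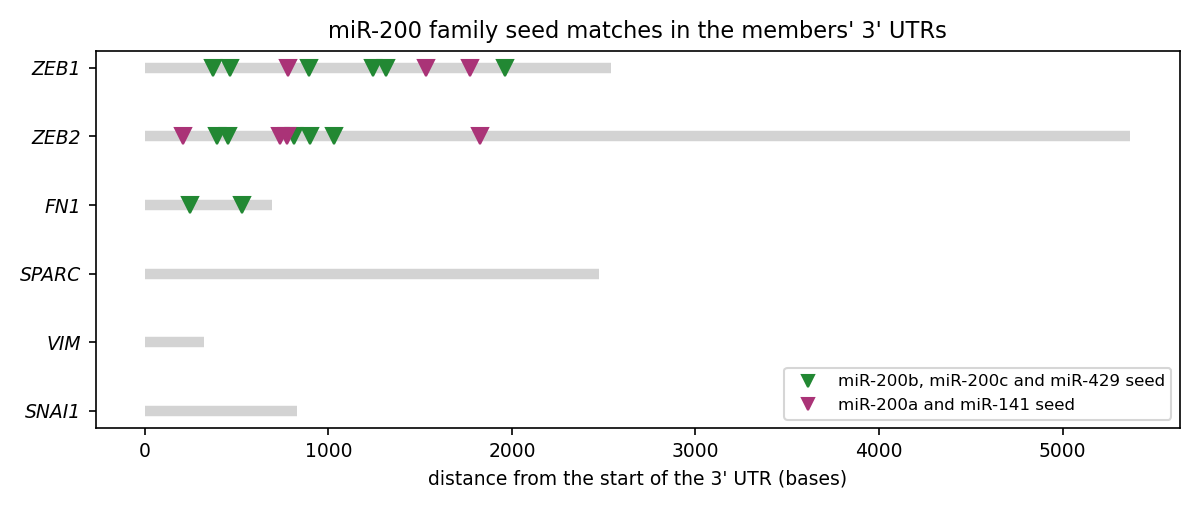
Positions of miR-200 family seed matches (triangles, coloured by seed group) along the 3′ UTR (grey bar) of 6 members, with the distance from the start of the 3′ UTR in bases on the x axis. ZEB1 and ZEB2 each hold 9 matches, FN1 holds 2, and SPARC, VIM and SNAI1 hold none.

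The rows of the miR-200 and miR-205 loci held nearly no counts. Of 8 loci listed, 7 were at 0 counts in all 4 libraries, and the host gene MIR200CHG had 1 and 3 counts in shCon and 4 and 1 in shUBXN1. Libraries made from mRNA do not capture mature microRNAs and seldom count short hairpins, which most of these rows are. The zeros of the hairpin rows thus do not show whether a locus was silent. A primary transcript could be read mainly from the host genes MIR200CHG and MIR205HG. For MIR200A, MIR200B and MIR429 no host gene was listed.

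The libraries held 23373700 to 27380508 counts, and a count of 3 corresponded to 0.113 to 0.128 CPM (counts scaled to library size with edgeR's TMM factors). UBXN1 itself was at 67.1 and 77.3 CPM in shCon and 16.8 and 18.5 CPM in shUBXN1, a log2 fold change of -2.03 (adjusted p = 9.98e-10, edgeR's quasi-likelihood test). Hepatocyte genes were present as 119.6 and 119.0 summed TPM (transcript levels scaled for gene length and library size) over 15 markers in shCon and 70.0 and 66.8 in shUBXN1, with APOC3 and GPC3 at 0. The share of counts from the mitochondrial genome was 5.28% and 5.59% in shCon and 7.43% and 8.27% in shUBXN1. Both shUBXN1 libraries were thus above both shCon libraries, and the part of this in the differences below was not tested. At an adjusted p under 0.05, 28.0% of the 16863 genes tested were higher and 28.2% were lower in shUBXN1, 56.2% in all. Over all genes tested the median change was 0.016 on the log2 scale.

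Against that background, 4 of the 7 members tested were called (57.1%). SPARC, SNAI2 and ZEB2 were higher in shUBXN1, FN1 was lower, and SNAI1, ZEB1 and VIM did not pass the test. Of the 4 factors tested, 2 were higher and 0 were lower, and the 3 mesenchymal markers divided into 1 higher, 1 lower and 1 not called. All 7 had groups that did not overlap in CPM, as had 78.0% of all genes tested. By a fold change of 2 with an unadjusted p under 0.05, which called 11.8% of genes higher and 6.09% lower, SPARC alone was called, as higher. SPARC passed the filter on low counts only through the shUBXN1 libraries. Expression here is a sum over all cells of a culture, in which fewer cells of a type and less RNA per cell cannot be told apart.

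**Figure D2:**
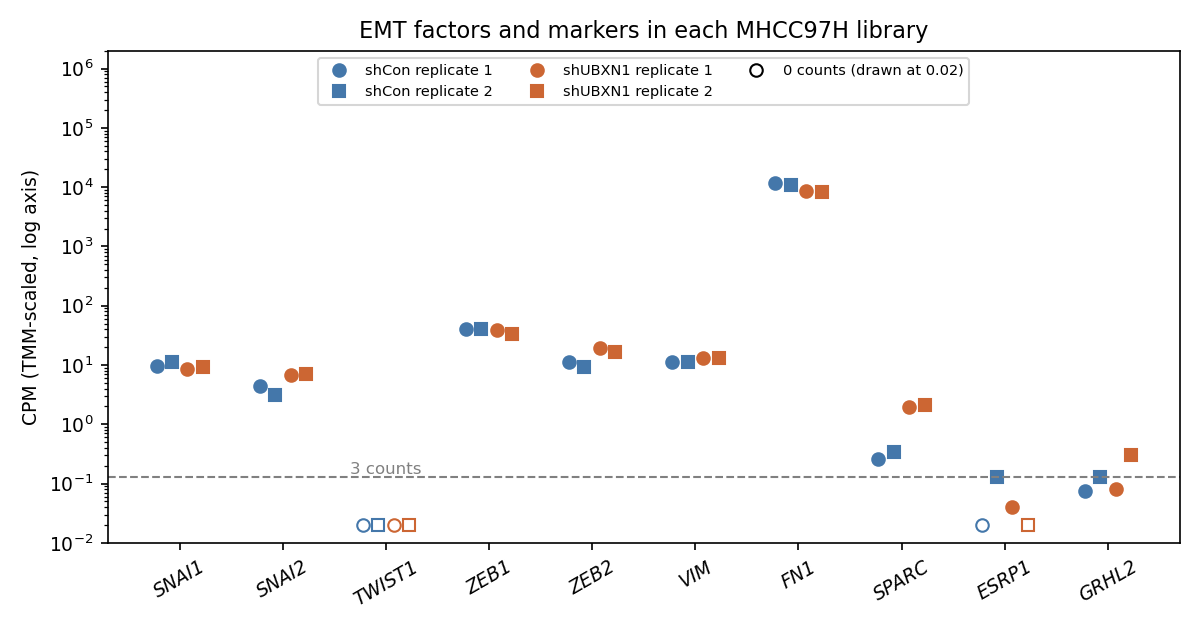
CPM of the 10 genes in each library on a log axis, with shCon in blue, shUBXN1 in orange, replicate 1 as circles and replicate 2 as squares. Open symbols are libraries at 0 counts and the dashed line is the level of 3 counts. FN1 lies between 8343 and 11600 CPM, SNAI1, ZEB1, ZEB2 and VIM between 8.57 and 40.9 CPM, and TWIST1, ESRP1 and GRHL2 near or below the line.

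Among the transcription factors, ZEB2 (ENSG00000169554, chr2:144364364-144521057, minus strand) was counted 296 and 218 times in shCon and 471 and 391 times in shUBXN1, or 11.1 and 9.28 CPM against 19.0 and 16.7 CPM. Both knockdown libraries lay above both control libraries. ZEB2 rose 1.75-fold (95% interval 1.44 to 2.13), a log2 fold change of 0.81 with a standard error of 0.132 (adjusted p = 0.000127, edgeR's quasi-likelihood test). Its paralog ZEB1 (ENSG00000148516, chr10:31318495-31529814, plus strand) was at 40.9 and 40.4 CPM in shCon and 38.6 and 33.8 CPM in shUBXN1. On the log2 scale ZEB1 differed by -0.17 (standard error 0.0881, adjusted p = 0.121), with an interval from a change of -21.9% to one of +1.49%. Both control libraries were above both knockdown libraries in CPM, whereas in TPM the groups overlapped (14.0 and 13.5 against 14.1 and 11.5). Without shUBXN1 replicate 1, the library with the higher ZEB1 level of the pair, ZEB1 passed the test (-0.27, adjusted p = 0.0133). The ratio of ZEB1 to ZEB2 in TPM was 5.94 and 7.03 in shCon and 3.27 in each shUBXN1 library. ZEB1 thus remained the more abundant ZEB transcript per length in every library, by a smaller margin in the knockdown.

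In the Snail pair, too, 1 gene was called higher and the other did not pass, and whether paralogs differed in response was not tested. SNAI2 (Slug, ENSG00000019549, on chromosome 8) had 120 and 73 counts in shCon and 170 and 162 in shUBXN1, equal to 4.50 and 3.11 CPM against 6.87 and 6.92 CPM. The control libraries differed from each other more than the knockdown libraries did, and the groups did not overlap. SNAI2 rose 1.80-fold (95% interval 1.31 to 2.49), a log2 fold change of 0.85 with a standard error of 0.216 (adjusted p = 0.00388). Without shCon replicate 2, the library with the lowest SNAI2 level, the log2 fold change was 0.61 and the call was lost (adjusted p = 0.0507). SNAI1 (Snail, ENSG00000124216, chr20:49982980-49988886, plus strand) had 260 and 259 counts in shCon and 212 and 216 in shUBXN1, or 9.75 and 11.03 CPM against 8.57 and 9.23 CPM. The difference on the log2 scale was -0.22 (standard error 0.145, adjusted p = 0.21), with an interval from a change of -30.9% to one of +6.35%. SNAI1 was 2.77 and 4.54 times SNAI2 in TPM in shCon and 1.59 and 1.70 times SNAI2 in shUBXN1.

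TWIST1, on chromosome 7, was at 0 counts in all 4 libraries. Summed over the pair of libraries of a group, a count of 0 allows up to 0.0736 CPM in shCon and 0.0766 CPM in shUBXN1 (upper bounds of the 95% Poisson interval, counting error only). Its paralog TWIST2 had 1 count in shCon replicate 1 and 0 elsewhere.

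The mesenchymal markers differed by orders of magnitude in level. FN1 (fibronectin, ENSG00000115414, chr2:215360440-215436073, minus strand), a matrix glycoprotein that hepatocytes also secrete into plasma, took 0.836% to 1.13% of all counts and ranked 40 of 61541 genes by TPM. It had 309264 and 253850 counts in shCon and 210695 and 195320 in shUBXN1, or 11600 and 10806 CPM against 8514 and 8343 CPM. FN1 fell by 24.8% (log2 fold change -0.41, standard error 0.105, adjusted p = 0.00405, edgeR's quasi-likelihood test). Both knockdown libraries were below both controls. The call was lost without shCon replicate 1 (log2 fold change -0.36, adjusted p = 0.277) and without shCon replicate 2 (-0.46, adjusted p = 0.172).

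SPARC (osteonectin, ENSG00000113140, chr5:151661096-151686975, minus strand), a secreted collagen-binding protein, lay at the other end of the range. It was counted 7 and 8 times in shCon and 49 and 50 times in shUBXN1, equal to 0.263 and 0.341 CPM against 1.98 and 2.14 CPM. The libraries of a group were close together and the groups were far apart. SPARC rose 6.76-fold (95% interval 3.42 to 13.4), a log2 fold change of 2.76 with a standard error of 0.460 (adjusted p = 0.000148), larger than that of 97.7% of genes tested. Even so, its mean level in TPM exceeded that of only 10.4% of genes tested. With 7 and 8 counts in shCon, SPARC passed the filter on low counts only through shUBXN1, where it was high. Its p-value, interval and rank thus come from a gene let in by its shUBXN1 level. Requiring 10 counts in all libraries left SPARC out, and 2 members were then called higher. On the log2(TPM + 1) scale, which compresses low levels, the difference was 0.93 and passed the test (adjusted p = 0.00149, limma).

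VIM (vimentin, ENSG00000026025, chr10:17228241-17237593, plus strand), an intermediate filament protein of mesenchymal cells, was at 11.1 and 11.3 CPM in shCon and 13.4 and 12.9 CPM in shUBXN1. The difference on the log2 scale was 0.24 (standard error 0.125, adjusted p = 0.123), with an interval from a change of -2.18% to one of +41.9%. Scaling to total counts, which moved the median of all genes to 0.10, brought VIM to 0.32 and past the test (adjusted p = 0.048). Antisense genes cover 24.6% of the annotated exon bases of VIM, and whether strand was used in counting is not given in the sources used here. VIM-AS1, the antisense gene at that locus, rose from 0.947 and 0.880 CPM in shCon to 3.56 and 3.15 CPM in shUBXN1 (log2 fold change 1.87, adjusted p = 0.000237). Antisense genes cover 3.69% to 4.97% of the exon bases of ZEB1, ZEB2, SPARC and SNAI2. Reads of VIM and VIM-AS1 over the shared bases cannot be told apart without strand. FN1 was 269 and 246 times VIM in TPM in shCon and 164 and 165 times VIM in shUBXN1.

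**Figure D3:**
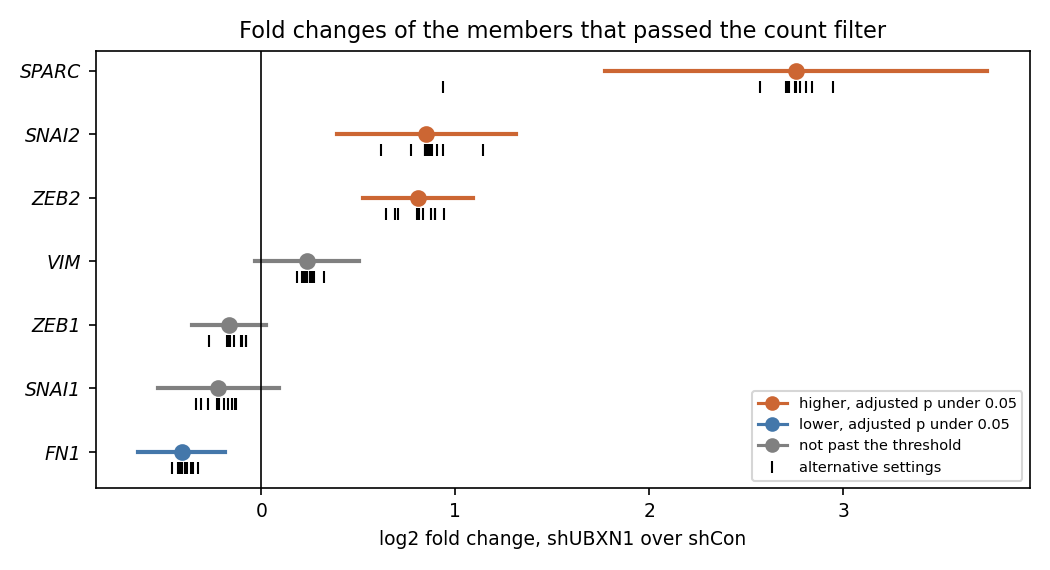
Log2 fold changes of the 7 genes tested (points) with 95% intervals (bars), shUBXN1 over shCon, coloured by call, and the values under the alternative settings (black ticks). SPARC, SNAI2 and ZEB2 lie to the right of 0, FN1 to the left, and the intervals of VIM, ZEB1 and SNAI1 include 0. The isolated tick of SPARC, at 0.93, is the difference on the log2(TPM + 1) scale.

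The epithelial regulators were close to undetected. ESRP1 had 0 and 3 counts in shCon and 1 and 0 in shUBXN1, and GRHL2 had 2 and 3 counts in shCon and 2 and 7 in shUBXN1. Summed over each group, GRHL2 was at 0.0997 CPM in shCon (95% Poisson interval 0.0324 to 0.233, counting error only) and 0.187 CPM in shUBXN1 (0.0855 to 0.355), and these intervals overlap. A difference in either gene was not detectable at this depth. ESRP2, the paralog of ESRP1 with an overlapping role in splicing, was at 12.3 and 14.0 CPM in shCon and 14.6 and 15.2 CPM in shUBXN1 (log2 fold change 0.18, adjusted p = 0.234). In TPM it was at least 121 to 134 times the level that 3 counts of ESRP1 would give.

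In order of level per gene length, the shCon libraries had FN1 first at a mean of 2679 TPM, then ZEB1 (13.7), SNAI1 (12.2), VIM (10.4), SNAI2 (3.51), ZEB2 (2.14) and SPARC (0.175), and no neighbours among these overlapped. In shUBXN1 the order was FN1 (2101 TPM), VIM (12.8), ZEB1 (12.8), SNAI1 (10.9), SNAI2 (6.61), ZEB2 (3.91) and SPARC (1.24). VIM and ZEB1 overlapped there, and the other neighbours did not. GRHL2, ESRP1 and TWIST1 came last in both groups.

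The members were next set beside the rest of the EMT network, given as gene lists. Of 18 other EMT-associated transcription factors, 12 were tested, of which 2 were higher, 3 were lower and 7 did not pass (median log2 fold change 0.02). The Ets factor ETS1 rose from 48.3 and 47.4 CPM to 137 and 147 CPM (log2 fold change 1.57). HMGA2, an architectural chromatin protein, was higher by 0.27, a call lost without shCon replicate 1 (adjusted p = 0.0828), shCon replicate 2 (adjusted p = 0.0759) or shUBXN1 replicate 2 (adjusted p = 0.115), each of which left 1 factor called higher. The forkhead factor FOXQ1 fell from 136 and 147 CPM to 61.6 and 66.7 CPM (-1.14). TCF3, which encodes the E proteins that pair with TWIST1, was lower by a log2 fold change of -1.03. In all, 41.7% of these factors were called, against the 56.2% of all genes.

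Of 34 other mesenchymal markers, 25 were tested, with 11 higher, 9 lower and 5 not called (median log2 fold change 0.04). Thus 80% were called, against 56.2% of all genes, in nearly equal numbers either way. That share includes genes that passed the filter on low counts only through the group where they were high. With 10 counts required in all libraries, 8 were higher and 7 were lower. The receptor tyrosine kinase AXL rose from 33.5 and 34.5 CPM to 99.7 and 100.03 CPM (log2 fold change 1.56), and the microfibril protein FBN1 rose by 0.97. TNC (tenascin C, a matrix protein) fell from 30.3 and 28.9 CPM to 1.45 and 1.495 CPM (-4.32), the largest fall on the list. LUM (lumican, a collagen-binding proteoglycan) was lower by -1.06. Several matrix genes are given in addition, chosen after their values were seen. The collagen gene COL1A1 had 10 and 4 counts in shCon and 58 and 59 in shUBXN1 (log2 fold change 3.11, adjusted p = 5.83e-05). COL5A1 had 0 counts in both control libraries and 30 and 25 in shUBXN1, and its fitted fold change depends on the prior count. The proteoglycan DCN went the other way, with 17 and 13 counts against 2 and 1 (-3.16, adjusted p = 0.0025), and so did TAGLN (transgelin, of smooth muscle and myofibroblasts), with 5.30 and 4.62 CPM against 0.706 and 1.23 CPM (-2.36, adjusted p = 2.13e-05). SPARC thus had both rising and falling matrix genes beside it. Like SPARC, COL1A1 and COL5A1 passed the filter on low counts only through shUBXN1, and DCN only through shCon. The proteoglycan BGN, with 4 and 3 counts in shCon and 29 and 19 in shUBXN1, also passed only through shUBXN1.

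Markers of cells that could contribute such transcripts were also read. Over 9 fibroblast and stellate cell markers the summed TPM was 28.2 and 27.5 in shCon and 15.3 and 15.8 in shUBXN1, with the defining marker PDGFRA at 0 in all libraries. Most of this sum was LUM, at 24.1 and 23.9 TPM in shCon and 11.3 and 12.6 TPM in shUBXN1. Only 2 of the 9 had at least 10 counts in every library. Of the 5 fibroblast and stellate cell markers tested, COL1A1 was higher and 3 were lower, and DCN, LUM and COL1A1 are also on the mesenchymal list. Over 5 endothelial markers the summed TPM was 15.2 and 15.3 against 32.0 and 32.3, with 2 of 3 tested called higher. Of these 5, 2 had at least 10 counts in every library. Over 6 leukocyte markers the sum was 1.26 to 2.07 TPM in every library, with CD3E at 0. Of 12 hepatocyte markers tested, 1 was higher and 8 were lower, with a median log2 fold change of -1.49. Beside these marker counts, 28.0% of all genes tested were higher and 28.2% were lower. The part of these differences in the members' values was not tested.

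On the epithelial side, 12 of 16 other epithelial regulators were tested. Of these, 2 were higher, 7 were lower and 3 did not pass, with a median log2 fold change of -0.35 against 0.016 for all genes. That was 75% called, against 56.2% of all genes. Total count scaling and limma on log2(TPM + 1) each gave 2 higher and 5 lower. HNF4A, on this list, is also among the hepatocyte markers. FOXA1, a pioneer factor of endodermal epithelia, fell from 51.5 and 52.7 CPM to 17.8 and 21.7 CPM (log2 fold change -1.40), and EHF, an epithelial Ets factor, was lower by -0.74. GRHL1, a relative of GRHL2, was higher at 4.69 and 3.65 CPM against 2.59 and 1.75 CPM (0.93). That call was lost without shCon replicate 2 (adjusted p = 0.10) or shUBXN1 replicate 1 (adjusted p = 0.0704). ELF3, another epithelial Ets factor, was higher by 0.22, a call lost without shCon replicate 1 (adjusted p = 0.246), without shCon replicate 2 (adjusted p = 0.191) or with the trend on GC content removed (adjusted p = 0.188). Without shCon replicate 2, 4 of the 12 were lower and 0 were higher.

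Of 40 epithelial structural genes, 35 were tested, with 13 higher, 15 lower and 7 not called (median -0.11), so 80% were called against 56.2% of all genes. The protease inhibitor SPINT1 rose from 29.3 and 28.3 CPM to 95.2 and 101 CPM (log2 fold change 1.76), and MUC1, an apical mucin, rose by 2.39. CLDN4, a tight junction claudin, fell from 146 and 151 CPM to 63.0 and 58.5 CPM (-1.29), and AP1M2, a subunit of the epithelial adaptor complex for basolateral sorting, was lower by -1.95. Both cadherins of the classical EMT switch, which are named here after their values were seen, were higher in shUBXN1. CDH1 (E-cadherin) was at 14.3 and 14.6 CPM in shCon and 32.2 and 33.1 CPM in shUBXN1 (log2 fold change 1.18, adjusted p = 1.83e-07), and CDH2 (N-cadherin) rose by 0.36 (adjusted p = 0.00098). The ratio of CDH2 to CDH1 in TPM was 9.16 and 8.46 in shCon and 4.88 and 5.11 in shUBXN1.

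**Figure D4:**
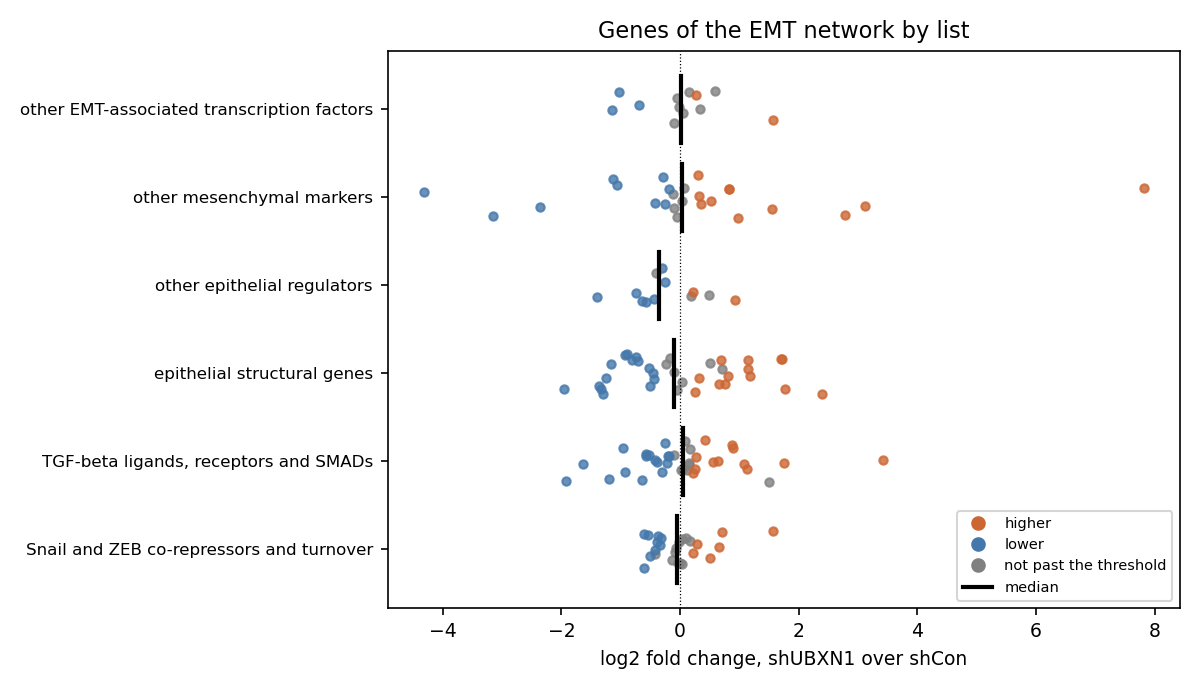
Log2 fold change (shUBXN1 over shCon, x axis) of every tested gene of 6 lists, 1 point a gene, coloured by call, with the median of each list as a black bar and random vertical spread. Points lie on both sides of 0 in every list, and the median of the other epithelial regulators is the lowest, at -0.35. The point farthest to the right is COL5A1, whose fitted size depends on the prior count because both control libraries were at 0.

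The Snail and ZEB factors bind the E-box words CAGGTG and CACCTG, which are each other's reverse complement, so a search for both covers both strands. RefSeq promoters (GRCh38.p14, 250 bases before to 50 after a start) that hold either word were 20.59% of 35116. Of the members, 5 matched promoters in the table, 11 promoters in all. None of those of ZEB2, FN1, SPARC and VIM held the word, and 2 of the ZEB1 promoters did. Of the 40 epithelial structural genes, 24 had a promoter in that collection, and CDH1 was not among them. Of their 34 promoters, 19 (55.88%) held it. Overlapping promoters of a gene, as in MUC1, can hold the same word. Of the tested genes with such a promoter, 5 of 15 were higher and 5 lower. Of those without one, 3 of 7 were higher and 4 lower. Over all genes tested, 28.0% were higher and 28.2% lower. Genes with the letters thus moved both ways, as genes in general did. Windows from ZEB1 and from 2 genes that rose and 2 that fell are shown in the direction of the gene, with 1 word in capitals.
ZEB1, chr10:31318350-31318375 (+): gaggtgacagCAGGTGagggccgggt
SPINT1, chr15:40844441-40844466 (+): ccgggctgatCAGGTGtgtctcctcc
MUC1, chr1:155192982-155193007 (-): ggggttttgtCACCTGtcacctgctc
AP1M2, chr19:10587354-10587379 (-): cagcgctgctCACCTGgccgcctccc
CLDN7, chr17:7262598-7262623 (-): acttccggttCAGGTGagtgtccctt

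CLDN7, a claudin shown for its 5 such words and chosen after its values were seen, was lower by -1.36 (adjusted p = 0.000774), and AP1M2 has 3 such words and SPINT1 has 1. A match describes letters and is not a bound site.

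Transforming growth factor beta (TGF-beta) signaling, which induces Snail and ZEB genes in many epithelia, was read as 38 ligands, receptors and SMADs with their targets. Of the 37 tested, 12 were higher, 16 were lower and 9 did not pass (median 0.05), so 75.7% were called against 56.2% of all genes. The balance depended on the scaling, with 16 higher and 12 lower under total count scaling and 13 higher and 12 lower with limma on log2(TPM + 1). ENG, the co-receptor endoglin, rose from 1.61 and 1.49 CPM to 15.9 and 17.6 CPM (log2 fold change 3.42), and the type I receptor ACVR1 rose by 0.89. The bone morphogenetic protein targets ID3 and ID1, inhibitors of basic helix-loop-helix factors, fell. ID3 was at 165 and 163 CPM in shCon and 43.0 and 43.1 CPM in shUBXN1 (-1.93), and ID1 was lower by -1.64.

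Proteins that work with the Snail and ZEB factors or turn them over were read last, since such factors are also controlled as proteins, which RNA does not show. Of 26 genes tested, 6 were higher, 9 were lower and 11 did not pass (median -0.05), so 57.7% were called against 56.2% of all genes. Total count scaling gave 7 higher and 7 lower. The co-repressor SIN3A rose by 0.71 and the LIM protein AJUBA, a Snail co-repressor, by 0.66 on the log2 scale. The ubiquitin ligase gene MDM2 fell by 0.61 and the ZEB co-repressor CTBP2 fell by 0.54. Without shCon replicate 1 or shCon replicate 2, 3 genes of this list were higher. Of 5 antisense and divergent genes of Snail and ZEB family, VIM and FN1 loci, 3 were tested. VIM-AS1 and SNAI3-AS1 (0.96) were the 2 called higher, beside 28.0% of all genes tested. ZEB1-AS1 was at 3.79 and 3.92 CPM against 2.82 and 3.55 CPM (adjusted p = 0.362, edgeR's quasi-likelihood test).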

How the data were processed

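MHCC97H cells were profiled by RNA-seq in 2 shCon and 2 shUBXN1 libraries, grouped by their titles. The authors deposited expected counts per gene (not normalized, 2 decimals) with a gene length. By the study's methods, paired-end reads were aligned to GRCh38 with Hisat2, whereas the submitters' processing notes list GRCh37, HISAT2 2.0.4 and StringTie 1.3.0. The methods name a TruSeq kit and the labels a VAHTS mRNA-seq V2 kit. The counting tool, annotation release and strand setting are not given in the sources used here, so overlapping genes are uncertain. Coordinates are those of GENCODE 44 on GRCh38, which matched 61369 of 61541 gene IDs by ID.

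Rounded counts went through edgeR 4.0.16 under R 4.3.3, with its default filter on low counts (filterByExpr), TMM factors and the two-sided quasi-likelihood F test, without a block and with 2 residual degrees of freedom. P-values were Benjamini-Hochberg adjusted over 16863 genes, and a gene was called at an adjusted p under 0.05. The test draws each gene's spread toward a value shared over genes. Its p-values and intervals therefore rest on more than the 2 residual degrees of freedom of a single gene. Standard errors are the log2 fold change over the square root of F. TPM was computed from counts and the deposited length. The biological coefficient of variation was 0.0711. Replicates differed beyond counting noise (chi-square per degree of freedom 3.83 and 8.48), so no library was counted as a copy. Total counts were 23373700 to 27380508, and intervals on single counts cover counting error only. Scripts were tested on simulated data.

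The members and gene lists were chosen with earlier results of these data known. All members and UBXN1 are named, and from each other list the 2 genes called higher and the 2 called lower with the smallest p, if their groups did not overlap and log2 CPM averaged above 0. Genes chosen after their values were seen are marked as such, and ESRP2, TWIST2, MIR200CHG and ZEB1-AS1 are also outside the rule. Alternatives were DESeq2 1.42.0, total count scaling, limma-voom and limma on log2(TPM + 1) (limma 3.58.1), leaving the counts unfiltered, requiring 10 counts in all libraries, a replicate block, a GC trend removed, a fold change of 2 with an unadjusted p under 0.05, and each library left out.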

Additional observations from a re-analysis of the deposited data

How the results depend on the processing

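The tally of single genes covers the 12 alternatives other than the fold change rule, and UBXN1 kept its direction and its call under all 12. Of the results for other single genes, 382 of the alternative values kept direction and call, 11 lost the call, 2 gained it and none changed sign. SPARC has no value in that tally where 10 counts were required in all libraries, since it was not tested there. By the fold change of 2 with an unadjusted p under 0.05, 1997 genes were higher and 1027 lower, with 1 member higher (SPARC) and 0 lower. SNAI2, ZEB2 and FN1 thus lost their call under that rule, as did genes of other lists, such as HMGA2 and FBN1. With the GC trend removed, 1 of the other epithelial regulators was higher. With each library left out in turn, the members called lower ranged from 0 to 2, the other EMT-associated transcription factors called higher from 1 to 3, the other epithelial regulators called higher from 0 to 2 and lower from 4 to 7, and the Snail and ZEB co-repressors called higher from 3 to 6. The causes were not tested. Leaving out a library leaves 1 sample in its group, which is then assumed to vary like the other group. The replicate numbers were not shown to pair the libraries (2 pairs, correlation of deviations 0.0965). With a replicate block, 5000 genes were higher and 5023 lower and the calls of the members were the same in direction and number. Total count scaling gave 5324 higher and 3969 lower, against 4727 and 4751, and it turned the balance of the TGF-beta list from 12 higher and 16 lower to 16 higher and 12 lower. Depth limits SPARC, which had under 10 counts per library in shCon and passed the filter only through shUBXN1. Depth also kept ESRP1, GRHL2 and TWIST1 out of the test. Fitted without the filter on low counts, ESRP1 and GRHL2 had adjusted p-values of 0.713 and 0.666.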
